A study of Mus musculus with 6 samples.

Results

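The 10 genes described here were grouped as bile acid and organic anion transporters of the hepatocyte. Slc10a1, Slco1a1, Slco1a4 and Slco1b2 serve uptake from blood. Abcb11, Abcb4, Abcb1a and Abcc2 serve export into bile, and Abcc3 and Abcc4 export back into blood. The set is wider than its name, since Abcb4 moves phosphatidylcholine and Abcb1a exports drugs. The genes were taken by symbol from the deposited array values. Only probe sets that name 1 gene were used and, per gene, the one with the highest mean over the 6 arrays. All 10 were found among the 22180 genes measured this way, each with 1 such probe set, and all lay above the median signal of every array (4.32 to 4.40 on the log2 scale). No filter on level was applied.

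The livers came from 6 male mice of C57BL/6 background, 1 array per mouse. In 3 of them, mice 26, 28 and 31, the liver expressed Sonic Hedgehog (SHH), the secreted ligand of the Hedgehog pathway, and in the other 3, mice 6, 13 and 21, it expressed green fluorescent protein (GFP). SHH was brought in by hydrodynamics-based transfection, a fast injection of a large fluid volume that carries DNA into hepatocytes, and the labels do not say how GFP was. The promoter that drove the 2 genes, the share of hepatocytes that took up DNA and the age of the mice were not given in the sources used here. Fibrosis and the expression of fibrosis genes under hepatic SHH were the study's question, and bile transporters were not named in it.

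Bile forms because hepatocytes take bile acids up at the sinusoidal membrane, facing the blood, and pump them across the canalicular membrane into bile. Uptake is carried by a sodium-coupled carrier and by organic anion transporting polypeptides, and canalicular export by ATP-driven pumps. Pumps of the basolateral membrane send bile acids and conjugates back to blood, and in mice they are known to be induced when bile flow is blocked. In rodents inflammation is known to lower the mRNA of several uptake carriers and canalicular pumps, and Slco1a1 is known as male-predominant and Slco1a4 as female-predominant in mouse liver.

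No transporter passed the threshold. Across the whole array limma called 0 genes (0% of 22180 at a Benjamini-Hochberg adjusted p under 0.05), with 889 lower and 738 higher genes at an unadjusted p under 0.05. Of the 10 transporters, 9 had a lower mean in SHH than in GFP livers, against 56.2% of all genes. In 3 of the 10, Abcb4, Abcb1a and Slco1b2, every SHH liver lay below every GFP liver, which was so for 7.25% of all genes, and none lay wholly above, against 5.26%. At an unadjusted p under 0.05, 2 of the 10, Abcb4 and Abcb1a, were lower (4.01% of all genes) and 0 higher (3.33%). The median difference, SHH minus GFP, was -0.30 on the log2 scale over the 10 and -0.03 over all genes.

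RefSeq promoter windows on GRCm38.p6, the 250 bases before the start of the gene, were found for 9 of the 10 genes, in 11 windows since Slc10a1 and Abcc4 had a pair each. Abcc3 had no entry. The windows of 4 genes are shown because these genes span the responses described below. Abcb4 and Slco1b2 separated the groups, Abcb11 did not, and Slco1a1 had the widest mean difference of the 10. Capitals mark matches on either strand to a farnesoid X receptor (FXR) inverted repeat (GGNCA, any base, then its reverse complement TGNCC), a nuclear receptor half-site (AGGTCA), an HNF1 half-site (GTTAAT), an antioxidant response element core (TGACNNNGC) or a TATA box (TATAAA).
Abcb4, chr5:8893471-8893720, plus strand: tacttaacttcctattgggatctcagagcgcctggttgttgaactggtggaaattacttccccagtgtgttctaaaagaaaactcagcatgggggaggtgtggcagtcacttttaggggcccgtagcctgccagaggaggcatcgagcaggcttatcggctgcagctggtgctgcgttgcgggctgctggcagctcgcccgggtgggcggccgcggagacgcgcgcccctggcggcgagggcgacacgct
Slco1b2, chr6:141629268-141629517, plus strand: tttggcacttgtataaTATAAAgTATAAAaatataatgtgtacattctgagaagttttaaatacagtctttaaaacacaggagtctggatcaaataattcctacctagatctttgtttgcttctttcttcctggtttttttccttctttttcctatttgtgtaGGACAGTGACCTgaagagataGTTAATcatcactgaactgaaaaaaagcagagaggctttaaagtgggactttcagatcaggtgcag
Abcb11, chr2:69342617-69342866, minus strand: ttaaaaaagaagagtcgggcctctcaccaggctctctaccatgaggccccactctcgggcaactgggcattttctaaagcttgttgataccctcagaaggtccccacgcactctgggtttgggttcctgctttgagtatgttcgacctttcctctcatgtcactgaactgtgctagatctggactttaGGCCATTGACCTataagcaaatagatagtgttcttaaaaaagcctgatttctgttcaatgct
Slco1a1, chr6:141946963-141947212, minus strand: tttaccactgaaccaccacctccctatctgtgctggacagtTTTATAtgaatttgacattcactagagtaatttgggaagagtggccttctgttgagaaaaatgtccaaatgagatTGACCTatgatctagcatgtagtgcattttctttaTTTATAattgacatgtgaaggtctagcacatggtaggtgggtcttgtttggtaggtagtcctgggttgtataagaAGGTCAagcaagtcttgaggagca
The FXR repeat was found in 2 of the 11 windows, and in 0.575% of all 32851 windows. It lay in Abcb11 (62 to 52 bases before the start) and in Slco1b2 (87 to 77 bases before the start). In both, it overlapped a nuclear receptor half-site. That half-site lay in 5 of the 11 windows, from 5 members (14% of all windows). The antioxidant core lay in 3 of the 11, that of Abcc2 and both of Abcc4 (10.2%). The HNF1 half-site lay in 1 of the 11, the Slco1b2 window (6.43%). The letters TATAAA lay in 3 of the 11 windows, from 3 members (12.4%). In Slco1b2 they ran from 234 to 229 and from 227 to 222 bases before the start. The other matches read TTTATA, on the opposite strand: 209 to 204 and 99 to 94 bases before the start in Slco1a1, and 128 to 123 in Slc10a1. Whether any of them acts as a TATA box was not tested. No window of Abcb4, Abcb1a or Slco1a4 held a match to any of these motifs.

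**Figure D1:**
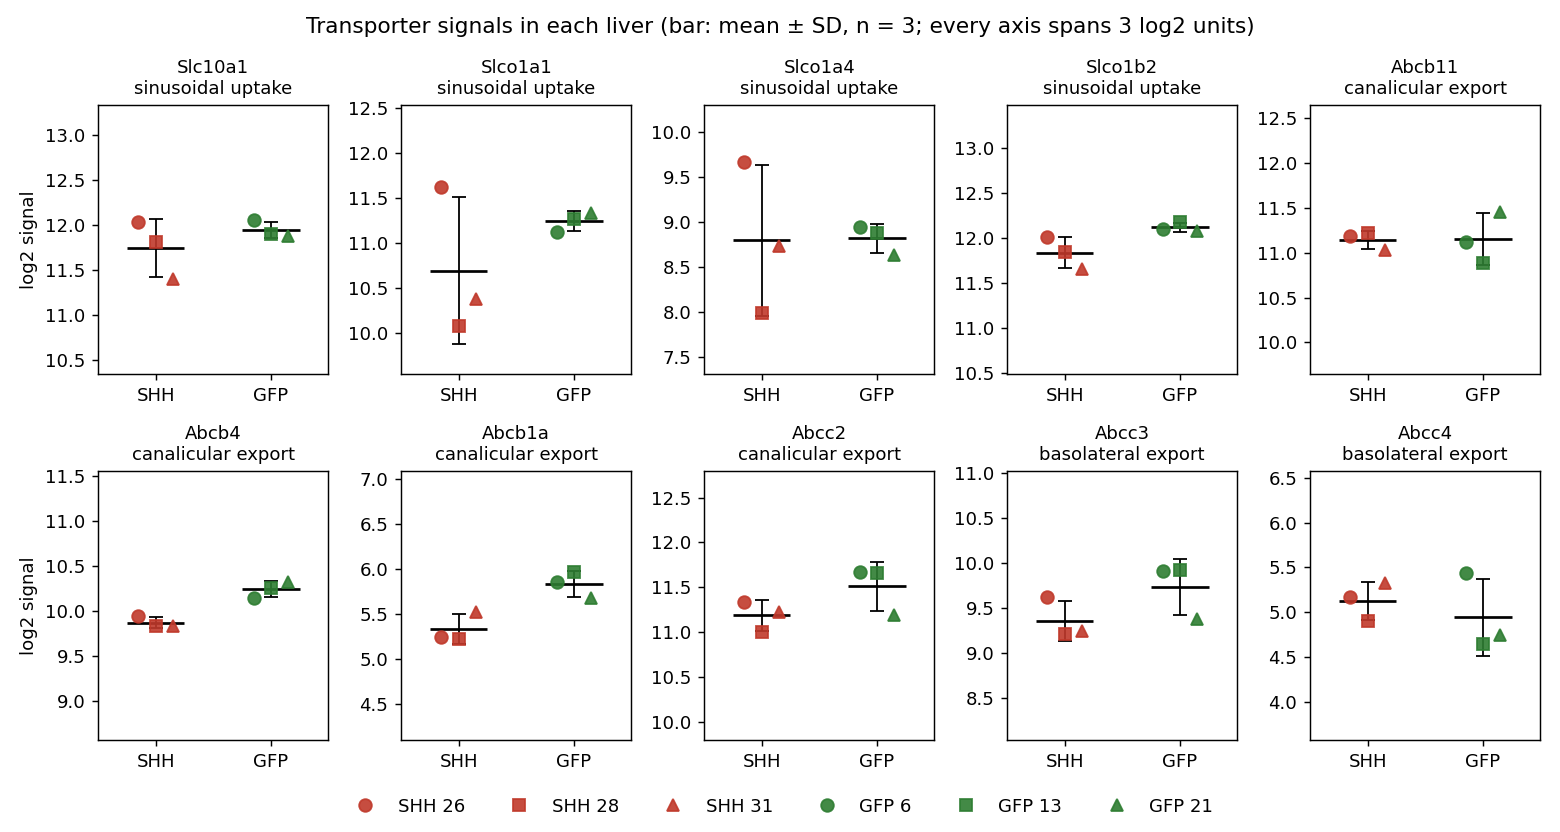
Log2 signal (y axis) of each transporter in SHH livers (red, left) and GFP livers (green, right), 1 point per mouse, with the mean and SD of 3 mice as black bars. Abcb4, Abcb1a and Slco1b2 have all SHH points below all GFP points, and SHH 26 stands above the other SHH livers for Slco1a1 and Slco1a4.

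Among the canalicular pumps, Abcb4, the floppase that puts phosphatidylcholine into bile, had SHH and GFP values that did not overlap. Its log2 signal was 9.94, 9.83 and 9.83 in SHH mice 26, 28 and 31, against 10.15, 10.25 and 10.33 in GFP mice 6, 13 and 21. All SHH livers were lower, and the 3 lay within a narrow range. Means were 9.87 ± 0.06 in SHH livers and 10.24 ± 0.09 in GFP livers (SD, n = 3 each), 1.30-fold lower in SHH (difference -0.37, 95% interval -0.64 to -0.10). Limma gave an unadjusted p of 0.0125 and an adjusted p of 0.556.

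Abcb1a, the drug-exporting P-glycoprotein MDR1A, had the smallest unadjusted p of the 10. It measured 5.25, 5.22 and 5.53 in SHH mice 26, 28 and 31 and 5.86, 5.96 and 5.68 in GFP mice 6, 13 and 21. Again every SHH liver was below every GFP liver, and SHH 31 and GFP 21 lay nearest each other. The difference was -0.50 (95% interval -0.82 to -0.18), or 1.42-fold lower, and did not pass (limma, adjusted p = 0.512). Its close paralog Abcb1b, which lies between Abcb1a and Abcb4 on chromosome 5 and is named here after its values were seen, measured 4.40 to 4.46 in SHH livers and 4.36 to 4.75 in GFP livers. Those groups overlapped. Whether probes of one paralog also bind the other was not tested.

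Abcc2, the pump for bilirubin glucuronides and glutathione conjugates, measured 11.33, 11.00 and 11.23 in SHH mice 26, 28 and 31. In GFP mice 6, 13 and 21 it measured 11.67, 11.66 and 11.19. GFP 21 lay among the SHH livers and the groups overlapped. The difference of -0.32 (95% interval -0.70 to 0.06) did not pass (limma, adjusted p = 0.742). Without GFP 21 it was -0.48, with no overlap.

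Abcb11, the bile salt export pump and the main canalicular route for bile acids, gave no difference of a fixed sign. Signals were 11.18, 11.22 and 11.03 in SHH mice 26, 28 and 31 and 11.11, 10.88 and 11.46 in GFP mice 6, 13 and 21. The SHH values lay inside the GFP range. The difference was -0.01, with a 95% interval of -0.38 to 0.36, and its sign turned with equal array medians or array weights (0.02 each). The interval does not exclude a change as large as that of Abcb4.

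Among the uptake carriers, 1 of the 4 separated the groups, against 7.25% of all genes wholly lower and 5.26% wholly higher. That gene was Slco1b2, a sodium-independent carrier of bile acids and drugs. It measured 12.01, 11.84 and 11.66 in SHH mice 26, 28 and 31, against 12.10, 12.18 and 12.08 in GFP mice 6, 13 and 21. All SHH livers were lower, SHH 26 by the least. The difference was -0.28 (95% interval -0.58 to 0.02), with a limma adjusted p of 0.702.

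Slco1a1, an organic anion carrier of the sinusoidal membrane, had the most negative mean difference of the 10 and a wide spread. It measured 11.62, 10.08 and 10.37 in SHH mice 26, 28 and 31, against 11.12, 11.27 and 11.34 in GFP mice 6, 13 and 21. SHH 26 was the highest of all 6 livers, and SHH 28 and SHH 31 were the lowest. Means were 10.69 ± 0.82 in SHH livers and 11.24 ± 0.11 in GFP livers (SD, n = 3 each). The difference of -0.55 (95% interval -1.32 to 0.22) did not pass (limma, adjusted p = 0.791). Without SHH 26 it was -1.02 and still did not pass (adjusted p = 0.0758). Without SHH 28 it was -0.24.

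Slco1a4, a nearby gene on chromosome 6 and a carrier of bile acids and cardiac glycosides, put the SHH livers in a similar order. It measured 9.67, 7.99 and 8.73 in SHH mice 26, 28 and 31, against 8.94, 8.88 and 8.63 in GFP mice 6, 13 and 21. SHH 26 was again above every GFP liver and SHH 28 below every one, while SHH 31 lay inside the GFP range. The mean difference of -0.02 had a 95% interval of -0.82 to 0.77 and turned sign with array weights (0.08). It was -0.46 without SHH 26 and 0.38 without SHH 28. The paralogs Slco1a5 and Slco1a6, named after their values were seen, gave signals of 2.64 to 2.92 and 2.71 to 3.06 in SHH livers, against 2.69 to 2.88 and 2.44 to 3.03 in GFP livers, below the median of every array.

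Slc10a1, the sodium taurocholate carrier NTCP, measured 12.03, 11.80 and 11.40 in SHH mice 26, 28 and 31, against 12.05, 11.90 and 11.88 in GFP mice 6, 13 and 21. SHH 31 and SHH 28 were the lowest of the 6 livers and SHH 26 lay inside the GFP range. The difference of -0.20 (95% interval -0.59 to 0.19) did not pass (limma, adjusted p = 0.853) and was -0.03 without SHH 31.

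**Figure D2:**
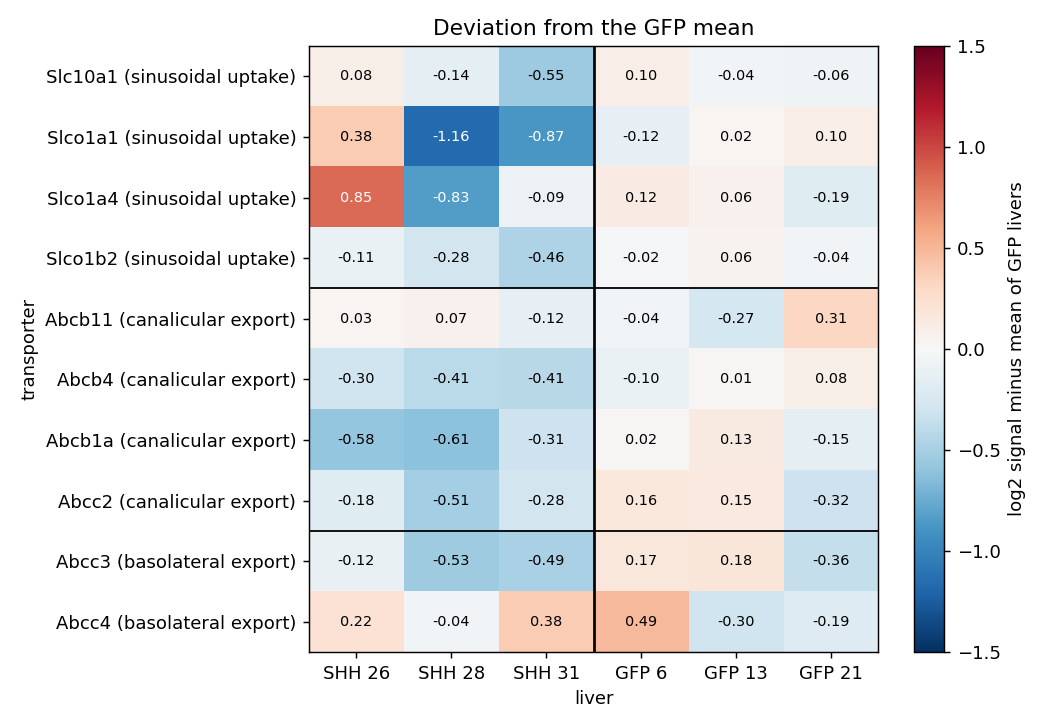
Log2 signal of each transporter (rows, by role) in each liver (columns) minus the mean of the 3 GFP livers, with the value printed in each cell. Slco1a1 is at 0.38 in SHH 26, -1.16 in SHH 28 and -0.87 in SHH 31. Slco1b2, Abcb4, Abcb1a, Abcc2 and Abcc3 are below 0 in all 3 SHH livers, and Abcb11 only in SHH 31.

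Basolateral export gave opposite signs for its 2 genes. Abcc3, which returns glucuronides and bile acids to blood, measured 9.61, 9.20 and 9.24 in SHH mice 26, 28 and 31, against 9.91, 9.92 and 9.37 in GFP mice 6, 13 and 21. GFP 21 lay below SHH 26, so the groups overlapped. The difference of -0.38 (95% interval -0.80 to 0.04) did not pass (limma, adjusted p = 0.719), and it was -0.56 without GFP 21.

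Abcc4, which exports bile acids together with glutathione, was the 1 transporter with a higher mean in SHH livers. It measured 5.17, 4.90 and 5.32 in SHH mice 26, 28 and 31, against 5.43, 4.65 and 4.75 in GFP mice 6, 13 and 21. The highest value was that of GFP 6, and the groups overlapped. The difference of 0.19 (95% interval -0.30 to 0.67) did not pass (limma, adjusted p = 0.901). Without GFP 6 it was 0.43 and all SHH livers lay above the other GFP livers (limma, adjusted p = 0.779), as did 8.99% of all genes. It was 0.04 without GFP 13, 0.09 without GFP 21, 0.09 without SHH 31, 0.30 without SHH 28 and 0.08 with array weights.

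**Figure D3:**
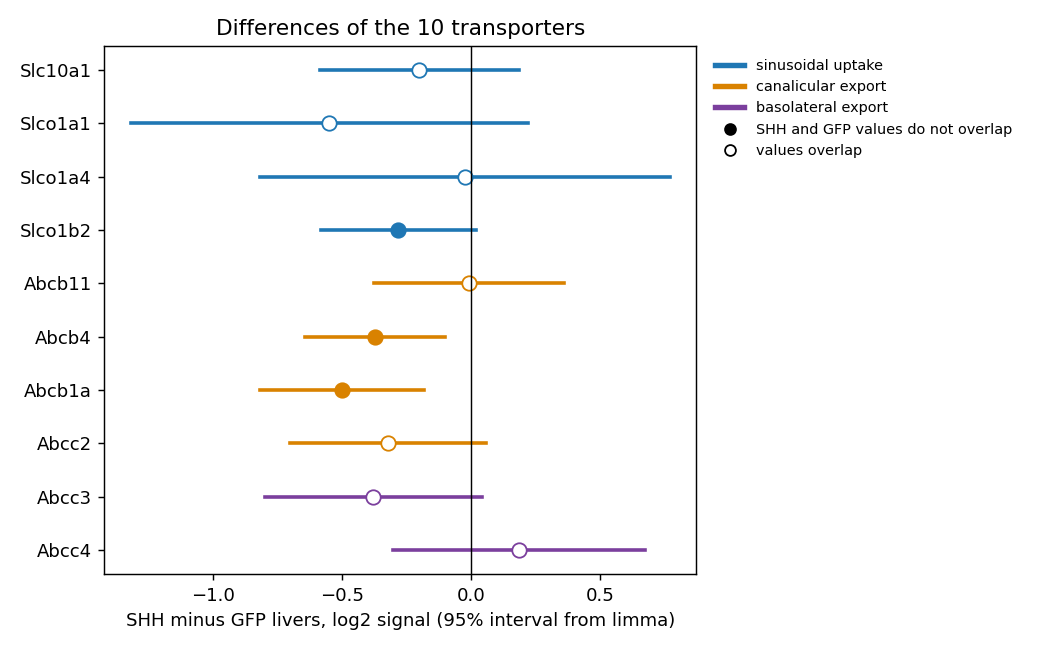
Mean difference of log2 signal, SHH minus GFP livers (x axis), for each transporter, with its 95% interval from limma and colour by role. Filled points are Slco1b2, Abcb4 and Abcb1a, whose groups did not overlap, and the intervals of Abcb4 and Abcb1a exclude 0 before adjustment over all genes.

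The members were also summarised by role in each liver. For the 4 canalicular genes the median deviation from GFP livers was -0.24, -0.46 and -0.29 in SHH mice 26, 28 and 31, against -0.01, 0.07 and -0.03 in GFP mice 6, 13 and 21. For the 4 uptake genes it was 0.23, -0.56 and -0.50 in the same SHH mice, against 0.04, 0.04 and -0.05 in the GFP mice. By these medians SHH 26 was below the GFP livers for canalicular genes and above them for uptake genes, but single genes differed. Of the uptake genes in SHH 26, Slco1a1 (0.38) and Slco1a4 (0.85) lay above every GFP liver. Slc10a1 (0.08) lay inside the GFP range and Slco1b2 (-0.11) below every GFP liver. Of the canalicular genes, Abcb4 (-0.30) and Abcb1a (-0.58) lay below every GFP liver, and Abcc2 (-0.18) and Abcb11 (0.03) inside the GFP range. Median differences between the groups were -0.35 for canalicular, -0.24 for uptake and -0.10 for basolateral genes, against -0.03 for all genes. With each mouse left out, the canalicular median ran from -0.41 to -0.29. The uptake median was -0.41 without SHH 26, close to the canalicular -0.40 in that setting, and -0.11 without SHH 31. The basolateral median was 0.07 without GFP 6, -0.17 without SHH 26, -0.0025 without SHH 28 and -0.23 without GFP 21. The difference between the roles was not tested.

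Counted by liver, 8 of the 10 transporters in SHH 28 lay below all 3 GFP livers, as did 29.2% of all genes there, and 0 lay above all of them (25.4%). In SHH 31, 6 lay below (31.6% of all genes) and 0 above (26%). In SHH 26, 3 lay below (28.8%) and 2 above (20.6%), shares close to those of all genes. Without SHH 26, 6 of the 10 were lower with no overlap, against 13.2% of all genes: Slc10a1, Slco1a1, Slco1b2, Abcb4, Abcb1a and Abcc3. Without GFP 21 the count was 5, against 14% of all genes, with Abcc2 and Abcc3 joining Slco1b2, Abcb4 and Abcb1a. At an unadjusted p under 0.05, 5 were lower without SHH 26 (4% of all genes) and 4 without GFP 21 (4.21%). No transporter passed the threshold in either case. Without SHH 26, 16 genes were lower (0.0721% of all) and 30 higher (0.135%) at an adjusted p under 0.05.

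**Figure D4:**
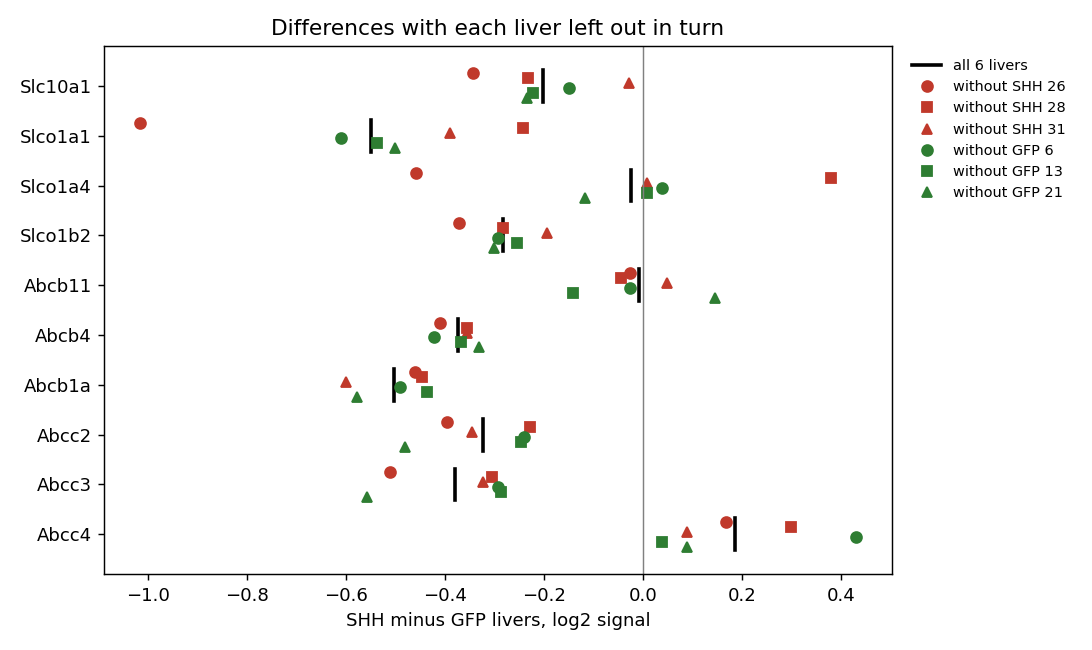
Difference of log2 signal, SHH minus GFP livers (x axis), for each transporter with all 6 livers (black bar) and with each liver left out (red for SHH mice, green for GFP mice). Abcb4 and Abcb1a stay between -0.60 and -0.33, Slco1a1 runs from -1.02 to -0.24 and Slco1a4 crosses 0.

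The SHH livers differed among themselves in other genes too. SHH mice 26, 28 and 31 had a Shh signal of 4.57, 4.28 and 4.63, and GFP livers one of 3.43 to 3.86. These Shh signals were near or below the array medians of 4.32 to 4.40, with SHH 28 below its own. They are not read as graded levels of SHH between mice. The signal of the Hedgehog-induced Hhip was 6.48 to 7.01 in SHH livers against 5.29 to 5.45 in GFP livers. All 19 measured acute phase genes, plasma and metal-binding proteins that the liver makes in inflammation, had a higher mean in SHH livers (43.8% of all genes did) and 15 of them separated the groups (5.26% of all genes were wholly higher). None passed over all genes. Mice 26, 28 and 31 of the SHH group deviated from the GFP mean by 0.50, 2.29 and 1.80 on average over this list, and GFP livers by -0.08 to 0.15. The named examples Mt1, Mt2, Saa3, Apcs, Lcn2 and Hpx were lowest in SHH 26 among the SHH livers. SHH 26, with the smallest acute phase deviation of the SHH livers, had the highest Slco1a1, Slco1a4, Slc10a1 and Slco1b2 among them. It also had the highest Abcb4, Abcc2 and Abcc3 among them, while SHH 28 was highest for Abcb11 and SHH 31 for Abcb1a and Abcc4. SHH 28 had a larger acute phase deviation than SHH 31, but the uptake genes did not all follow that order. Slco1a1 and Slco1a4 were lower in SHH 28, and Slc10a1 and Slco1b2 were lower in SHH 31. The part of the acute phase in the transporter values was not tested.

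Genes known as male-biased in mouse liver were also counted. Of 17 measured, 13 had a lower mean (56.2% of all genes did), 8 lay wholly below (7.25% of all genes) and 4 had a higher mean, with a median difference of -0.45 and mean deviations of -0.19 for SHH 26, -0.44 for SHH 28 and -1.01 for SHH 31, while GFP livers ran from -0.10 to 0.19. None passed in limma. Selenbp2, a male-biased gene, shared the split of Slco1a1, at 11.36 in SHH 26, 9.44 in SHH 28 and 9.05 in SHH 31, while GFP livers ran from 11.34 to 11.78. Cyp4a12b (2.74-fold lower), Cyp2u1 (2.04-fold) and Cyp4a12a (2.38-fold) were lower in all 3 SHH livers, as was Cyp2d9 (1.39-fold), while the complement gene C8a was higher (1.33-fold). Of 18 female-biased genes 11 had a lower mean (56.2% of all genes did), and 5 lay below the median of every array. Of the 18, 2 lay wholly above and 2 wholly below, against 5.26% and 7.25% of all genes. Their median difference was -0.16 and their mean 0.04, which differ in sign. Atp6v0d2 (1.94-fold) and Cyp2b9 (2.62-fold) were higher with no overlap and Abcd2 (2.63-fold) with overlap, while Cd36 (1.51-fold), Gstt3 (1.37-fold) and Cyp2a4 (1.51-fold) were lower, the last with overlap.

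In whole liver, fewer cells of a type and less RNA per cell cannot be told apart. The 10 hepatocyte markers were at a mean level of 12.15 to 12.29 in SHH livers and 12.21 to 12.25 in GFP livers, 6 higher and 4 lower. None of these markers separated the groups, against 5.26% of all genes wholly higher and 7.25% wholly lower. Tdo2 (-0.24), Apoa1 (0.16), Hnf4a (0.15), Tat (-0.06), Asgr1 (0.07) and Apob (0.03) led them by unadjusted p. The 7 bile duct markers, Krt19 among them, were at 3.89 to 4.10 in SHH livers and 3.91 to 4.15 in GFP livers, and 4 of them lay below the median of every array. The 10 macrophage markers all had higher means (7.24 to 8.24 in SHH livers and 6.59 to 7.50 in GFP livers). So did the 9 neutrophil markers (3.71 to 4.79 in SHH livers and 3.38 to 3.59 in GFP livers). The 9 lymphocyte markers did too (4.28 to 4.82 in SHH livers and 3.96 to 4.09 in GFP livers). Mpeg1 (2.72-fold), S100a9 (3.59-fold) and Jchain (2.74-fold) had the largest differences of their lists. Median log2 differences were lower, at 0.65 for macrophage, 0.64 for neutrophil and 0.42 for lymphocyte markers. Wholly higher were 1 of 10 macrophage, 4 of 9 neutrophil and 4 of 9 lymphocyte markers, against 5.26% of all genes. In the neutrophil and lymphocyte lists, 3 markers each lay below the median of every array. The 8 endothelial markers were all lower by mean, at 6.65 to 7.46 in SHH livers and 7.04 to 7.53 in GFP livers. Of 9 stellate cell markers, 8 had higher means (7.08 to 7.20 in SHH livers and 6.85 to 7.04 in GFP livers). None of these genes passed, and the part of these cells in the transporter values was not tested.

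Other transporters of the liver were split in direction. Of 18 measured, 11 had a lower and 7 a higher mean (56.2% and 43.8% of all genes), and 0 passed. The median difference was -0.04, and 3 of the 18 lay below the median of every array. Slc47a1, the canalicular exporter of organic cations, had signals of 8.22, 8.25 and 8.25 in SHH mice 26, 28 and 31 against 8.73, 8.90 and 8.53 in GFP mice 6, 13 and 21. It was 1.39-fold lower and the 1 gene of this list that separated the groups, against 7.25% of all genes wholly below. Abcg2, an exporter of drugs and conjugates, and Abcg8, a subunit of the sterol exporter, were each 1.27-fold lower by mean with overlap. Slc22a7 was 1.17-fold lower and Atp8b1, a canalicular phospholipid flippase, 1.26-fold higher, both with overlap.

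Slc10a2, the apical sodium-coupled bile acid carrier best known from ileum and bile ducts, had a higher mean in SHH livers. It measured 5.95, 8.07 and 6.70 in SHH mice 26, 28 and 31, against 5.45, 6.08 and 6.08 in GFP mice 6, 13 and 21. SHH 28 stood far above the rest, and SHH 26 lay inside the GFP range. The difference of 1.03 (2.05-fold, 95% interval 0.01 to 2.06) did not pass (limma, adjusted p = 0.677).

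**Figure D5:**
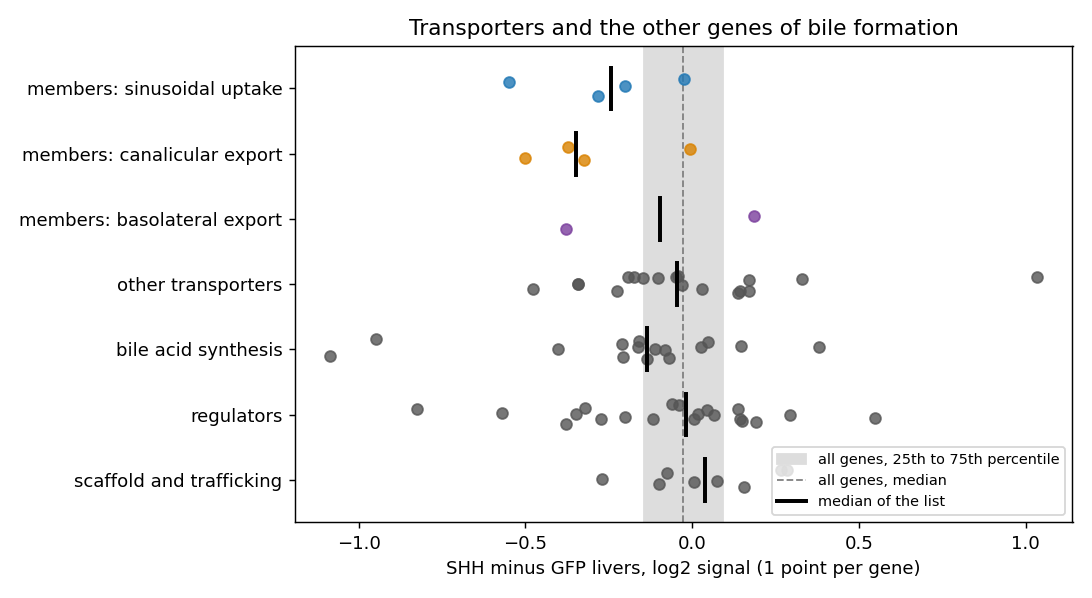
Difference of log2 signal, SHH minus GFP livers (x axis), for each gene (points) of the transporters by role and of the other lists of bile formation, with list medians as black bars and the range between the 25th and 75th percentile of all genes shaded. Medians are -0.35 for canalicular and -0.24 for uptake genes, against -0.04 for other transporters and -0.02 for regulators.

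Among 20 regulators of transporter genes, 10 had a lower and 10 a higher mean, and the median difference was -0.02. None passed in limma, and 5 lay wholly below, against 7.25% of all genes. Nr1i3 encodes CAR, a xenobiotic receptor known in mice to induce Abcc2 and Abcc3. It measured 8.82, 7.85 and 8.85 in SHH mice 26, 28 and 31, against 9.42, 9.72 and 8.86 in GFP mice 6, 13 and 21, 1.77-fold lower by mean with GFP 21 just above the highest SHH livers. Ppara, known in mice to induce Abcb4 when activated, was 1.48-fold lower, at 8.60, 8.20 and 8.05 in the SHH mice against 8.67, 8.95 and 8.93 in the GFP mice. Nfe2l2, which encodes NRF2, an inducer of Abcc2, Abcc3 and Abcc4 in mouse liver, was 1.30-fold lower. The bile acid receptor gene Gpbar1 was 1.27-fold lower, but at a low signal. It measured 3.94 to 4.32 in SHH livers, below the medians of their arrays, and 4.43 to 4.56 in GFP livers, just above theirs. Nr1h4, which encodes FXR, was 1.25-fold lower with overlap (9.31 to 9.58 in SHH livers and 9.53 to 9.95 in GFP livers). Esr1 was 1.46-fold higher with overlap. Of the transporters named here with their inducers, Abcb4, Abcc2 and Abcc3 had lower means in SHH livers and Abcc4 a higher mean. The part of these regulators in the transporter values was not tested.

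Genes of bile acid synthesis and conjugation had a lower mean in 11 of 15 cases (56.2% of all genes), with a median difference of -0.13, and 4 lay wholly below (7.25% of all genes). None passed. Cyp8b1, the sterol 12-alpha-hydroxylase, measured 9.30, 7.96 and 8.14 in SHH mice 26, 28 and 31, against 9.58, 9.34 and 9.73 in GFP mice 6, 13 and 21. SHH 26 lay just below the lowest GFP liver and far above the other SHH livers. The oxysterol 7-alpha-hydroxylase Cyp7b1 (1.93-fold), the reductase Akr1d1 (1.32-fold) and the peroxisomal Hsd17b4 (1.16-fold) were also lower in every SHH liver. Cyp7b1 also stands in the male-biased list, as Hnf4a does among both regulators and hepatocyte markers. Cyp27a1 (1.16-fold lower) and Cyp39a1 (1.30-fold higher) overlapped. The 8 genes for scaffold and trafficking proteins that hold carriers at the membrane had 5 higher and 3 lower means. Their median difference was 0.04. None of these 8 genes separated the groups, against 5.26% of all genes wholly higher and 7.25% wholly lower. They included Rdx, for the canalicular linker radixin (-0.27), Stx3 (0.28), Ezr (0.27), Cttn (0.15), Slc9a3r1 (-0.10) and Hax1 (0.07), each given as the log2 difference.

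The likeness of genes over the 6 livers was measured as the root mean square difference between their deviations from their own means, with 10491 other named genes above the median level compared. Within the set, Abcc2 and Abcc3 were the closest pair (0.0884), both low in SHH 28, SHH 31 and GFP 21, followed by Slco1b2 with Abcb4 (0.105) and Slc10a1 with Slco1b2 (0.115). Outside the set, the gene nearest to Abcc3 was Abcg8 (0.0390), a sterol exporter of the canalicular membrane, then Simc1 (0.0585) and Pde8a (0.0702). Nearest to Abcb4 were Slc25a48 (0.0389), Ackr3 (0.0492) and Dohh (0.0531). Nearest to Abcb1a were Myct1 (0.0474), Rasal2 (0.0551) and Mir692-1 (0.0621), and nearest to Slco1b2 were Chchd7 (0.0242), Gphn (0.0283) and Chaserr (0.0339). With 6 points and this many genes, close matches are given as a description.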

How the data were processed

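The authors deposited log2 signals of 41345 probe sets for 6 arrays, made with RMA per the submitters' processing notes. RMA corrects background, equalises array distributions and summarises probes, which can compress changes of bright and dim genes. Neither version nor annotation is stated in the sources used here. Total RNA was extracted with Trizol and biotin-labelled, per the labels' protocols. Platform annotation gave 23521 probe sets with 1 gene, 1814 with several (left out) and 16010 unnamed here.

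The 2 groups were tested in R 4.3.3 with the limma package, version 3.58.1 (lmFit, eBayes, two-sided), on 22180 genes with Benjamini-Hochberg adjustment over all of them, threshold 0.05. Intervals are 95% and spreads SD over 3 mice. A fold change is the antilog of the difference in mean log2 signal. An exact permutation test of 3 against 3 cannot go below p = 0.1 and was not used. The number of arrays limits the precision.

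The transporters and gene lists were chosen with earlier results of these data known. Lists were described by counts and medians. Genes were named by rule: the 10 transporters, Shh, Hhip, up to 6 per list by unadjusted p, and the 3 genes most like each of the 4 transporters with the smallest p. For lists of immune, endothelial and stellate markers 1 gene or none is printed. Listed genes that were not measured are not analysed here. Alternatives were the probe set per gene, a filter on level, 2 normalizations, 2 priors, array weights, a threshold of 0.1 and each mouse left out.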

Additional observations from a re-analysis of the deposited data

How the results depend on the processing

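No paired analysis was possible because the groups share no mouse numbers. Of 252 recomputed values, 237 kept their direction and their side of the threshold or stayed close to the value reported, and no transporter passed the threshold under any alternative run. Each transporter has 1 probe set, so the choice of probe set left its difference as it was. The filter on level and the 2 priors also leave a difference as it is. In those settings no sign could turn. Signs turned for Abcb11 with equal array medians (0.0154) and array weights (0.0182) and for Slco1a4 with array weights (0.0751). With each mouse left out, Abcb11 ran from -0.14 to 0.15 and Slco1a4 from -0.46 to 0.38, with -0.01 and -0.02 reported. The other 8 transporters kept their sign in every setting run. The count of transporters with a lower mean, 9 as reported, was 8 with equal array medians, 7 with array weights and 7 to 9 with each mouse left out. With mice left out, genes called ran from 0 to 30 higher and 0 to 16 lower, the upper ends without SHH 26. Transporters whose groups do not overlap ran from 3 to 6, with 6 without SHH 26, 5 without GFP 21 and 4 without GFP 6, where the added gene, Abcc4, was higher in SHH livers. A count added after seeing the data, transporters lower at an unadjusted p under 0.05, ran from 2 to 5, with 5 without SHH 26 and 4 without GFP 21, and was 3 among genes above the median level. The cause was not tested. With a threshold of 0.1, limma still called 0 genes, with 1627 at an unadjusted p under 0.05. With 3 arrays a group, differences of the size seen here had intervals that mostly include 0.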
